A study of Mus musculus with 32 samples.

Results

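The expression of 38 genes of the cell cycle and of proliferation was followed over the day in iBAT, the interscapular depot of thermogenic brown fat in mice. The 38 genes were chosen by symbol, and all 38 were found by their Ensembl identifier among the 50686 genes of the count table. The RNA came from whole iBAT of male C57BL/6J mice of 10 weeks, fed chow, not fasted, kept with 12 h of light and 12 h of dark and housed in mild cold, below thermoneutrality. Mice were killed at Zeitgeber times (ZT) 0, 3, 6, 9, 12, 15, 18 and 21, where ZT0 is lights on (start of the inactive phase) and ZT12 lights off. There were 4 mice per time point and 1 stranded paired-end RNA-sequencing library per mouse, 32 libraries in all, and no group differed in genotype or treatment.

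A dividing cell passes through G1, copies its DNA in S phase, prepares in G2 and separates its chromosomes in mitosis (M). Cyclins switch on cyclin-dependent kinases (CDKs): D cyclins with CDK4 and CDK6 in G1, E cyclins with CDK2 at the G1/S border, cyclin A in S and G2, and cyclin B with CDK1 at entry into mitosis. WEE1 holds CDK1 back by phosphorylating it, and the inhibitors p21 (Cdkn1a) and p27 (Cdkn1b) bind cyclin-CDK complexes. Transcripts of most mitotic genes build up mainly in G2 and M, so in adult tissue they come mostly from the few cells that divide. Mature brown adipocytes are largely post-mitotic, whereas progenitors, endothelial cells and immune cells of the fat pad can divide. Wee1 is a textbook clock-controlled gene and Cdkn1a a textbook target of p53. In RNA from whole tissue, fewer cells of a type and less RNA per cell cannot be told apart.

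Library totals ran from 16300770 to 18254659 counts, so that 3 counts corresponded to 0.158 to 0.193 CPM (counts scaled to library totals corrected by TMM, trimmed mean of M-values). The brown adipocyte markers were abundant, with means over all mice of 2209 CPM for Ucp1, the uncoupling protein, and 1837 CPM for Cidea. Skeletal muscle markers were near 0 in some libraries and high in others (summed level of 7 genes from 2.06 to 5298 CPM). Time points were nested in sequencing lanes: ZT0, ZT3 and ZT6 were run on lane 2, ZT9, ZT12 and ZT15 on lane 3, and ZT18 and ZT21 on lane 4. Differences between time points of different lanes and differences between lanes can therefore not be told apart, and the called members are given with values beside a lane term or within lanes. JTK was run without a lane term.

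Levels differed widely between the roles. Per kilobase of exon, Cdkn1a was the most abundant member, with a mean of 14.6 CPM per kb over all 32 mice. Pcna, the sliding clamp of DNA polymerase, followed at 8.76 CPM per kb and Cdkn1b at 8.73, Ccnd3 at 5.71 was the highest cyclin, and Wee1 stood at 2.98. The 10 replication genes had a median of 1.09 CPM per kb and the 5 G1/S and D cyclins of 1.99. The 20 mitotic members lay far lower, with a median of 0.219 CPM per kb for the G2/M cyclins and kinases and of 0.151 for the spindle and chromosome genes. Of these 20 genes, 16 averaged under 1 CPM. Bub1, a kinase of the spindle checkpoint, reached at most 9 counts in a library, Aurkb, the kinase of the chromosomal passenger complex, at most 10, and Cenpf, a kinetochore protein, at most 15. These 3 genes did not pass the filter on low counts and were not tested, which left 35 members among 15505 tested genes.

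The spread between mice of the same time point was widest for the mitotic genes, with a median SD of 43.4% of the mean for the G2/M group and 41.8% for the spindle group, beside 15.6% for the replication group. Their counts were also lower, and counting alone would give a median SD of 32.7%, 26.7% and 11.3% of the mean at the mean counts of these groups. Pooled over time points, the SD was 7.24% of the mean for Pcna, 8.35% for Ccnd3 and 13.0% for Cdkn1b. Among tested members it was highest at 60.0% of the mean for Mki67, the proliferation antigen Ki-67, 58.6% for Top2a, the topoisomerase that untangles replicated chromosomes, 57.1% for Ccnb2, cyclin B2, and 57.0% for Prc1, which bundles microtubules at the midzone. Mki67 rested on 15 to 122 counts per library, and counting alone would give 15.7% for Mki67, 20.2% for Top2a, 38.3% for Ccnb2 and 30.3% for Prc1.

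The main question was which members oscillate over the day. By edgeR's quasi-likelihood test of a 24 h cosine, 9 of 35 members (25.7%) passed an adjusted P of 0.05, against 36.1% of all tested genes. By JTK, the rank test for oscillation used in the study, 8 members passed P of 0.05 (background 38.8%) and 6 the adjusted P (background 29.4%). The median amplitude of the 35 members was 0.17 on the log2 scale, beside 0.14 for all tested genes. The highest amplitudes were 1.03 for Cdkn1a, 0.79 for Ccnb1 and 0.68 for Wee1. Of the 9 rhythmic members, 6 had their fitted peak between ZT3 and ZT9 (background 27.1% of rhythmic genes) and only Wee1 and Cdkn1a peaked in the dark phase (background 49.1%). With lane beside the cosine, 3 members passed (Cdkn1a, Ccne1 and Ccnb1; background 17.2%).

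**Figure D1:**
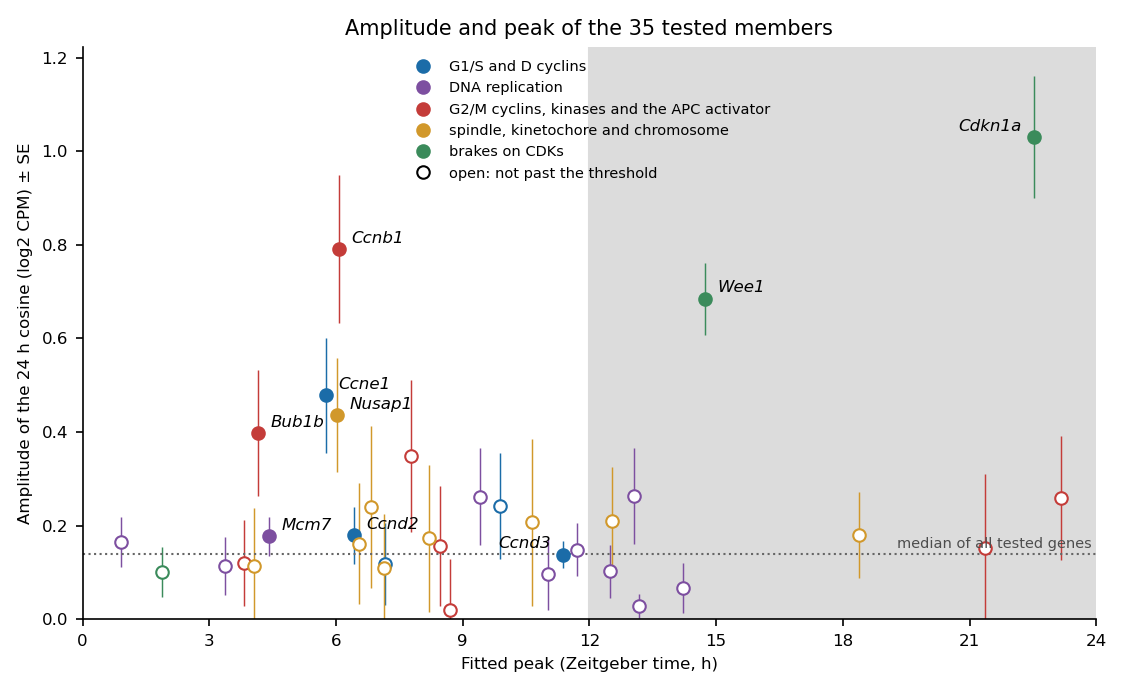
Amplitude of the fitted 24 h cosine (log2 CPM, error bars SE) against its fitted peak (Zeitgeber time in h, dark phase shaded) for the 35 tested members, coloured by role; filled points passed an edgeR adjusted P of 0.05. Cdkn1a at 1.03 and Wee1 at 0.68 stand on the dark side, Ccnb1 at 0.79 is the highest point of the light phase, and the dotted line marks the median of all tested genes at 0.14.

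Cdkn1a, the CDK inhibitor p21, had the widest swing. In the light phase the 4 mice held 98.8, 79.8, 117 and 65.1 CPM at ZT0, 50.7, 70.4, 83.2 and 63.2 at ZT3, 22.6, 26.4, 30.5 and 35.4 at ZT6 and 17.3, 24.7, 11.3 and 15.3 at ZT9. In the dark phase they held 27.2, 42.6, 31.4 and 46.3 at ZT12, 38.6, 44.7, 31.8 and 24.9 at ZT15, 34.3, 28.1, 36.4 and 48.1 at ZT18 and 86.4, 105, 101 and 125 at ZT21. Every mouse of ZT21, ZT0 and ZT3 was above every mouse of the other 5 time points. The mean was 17.2 ± 5.63 CPM at ZT9 and 104 ± 15.7 at ZT21 (SD, n = 4 each), a 6.08-fold difference between the lowest and highest time point. The cosine passed (edgeR adjusted P = 9.38e-07) with a peak at ZT22.5 ± 0.484 h (SE). It also passed beside lane (adjusted P = 0.000268), and the time points differed within lane 2 (ZT0, ZT3, ZT6; adjusted P = 0.00156) and within lane 4 (ZT18, ZT21; adjusted P = 0.00449), but not within lane 3 (adjusted P = 0.0632). A transcript on the other strand, AC167363.2, overlaps 7.68% of the exonic bases of Cdkn1a (ENSMUSG00000023067, chr17:29090976-29100727, GRCm38), and whether counting used the strand is not stated.

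Wee1, the kinase that holds CDK1 inactive, was also highest in the dark phase, but earlier. The mice held 8.41, 6.16, 6.67 and 5.62 CPM at ZT0, 8.22, 5.45, 5.86 and 4.70 at ZT3, 7.34, 7.45, 6.28 and 3.23 at ZT6 and 12.1, 10.1, 11.3 and 12.7 at ZT9. After lights off they held 12.4, 13.8, 16.4 and 14.2 at ZT12, 14.8, 17.1, 13.1 and 14.2 at ZT15, 12.6, 11.4, 11.9 and 9.50 at ZT18 and 12.0, 12.4, 10.2 and 8.57 at ZT21. All 12 mice of ZT0 to ZT6 lay at or below 8.41 CPM and all 20 other mice above it. Means rose from 6.06 ± 1.52 CPM at ZT3 to 14.8 ± 1.67 at ZT15 (SD, n = 4 each; 2.44-fold), and the cosine passed (edgeR adjusted P = 1.67e-07) with a peak at ZT14.7 ± 0.431 h. The step lay between ZT6 and ZT9, which is also the step from lane 2 to lane 3. Beside lane the cosine did not pass (adjusted P = 0.241), and no lane by itself differed between its time points (adjusted P = 0.867, 0.189 and 0.828 in lanes 2, 3 and 4), so time of day and lane cannot be told apart for Wee1.

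Cdkn1b, the inhibitor p27, varied little over the day. Its means ran from 34.4 ± 2.54 CPM at ZT12 to 44.6 ± 3.16 at ZT3 (SD, n = 4 each), and the cosine did not pass (edgeR adjusted P = 0.282, amplitude 0.10). Within lane 4 it was higher at ZT21, with 43.6, 42.1, 45.3 and 42.9 CPM, than at ZT18, with 35.3, 35.3, 35.8 and 39.9 (edgeR adjusted P = 0.0442). The call was lost in 7 of 8 fits without 1 mouse (edgeR adjusted P up to 0.107, without mouse 1 of ZT21) and with library size alone (0.107). Of all genes tested in that lane, 4.48% passed, and of the 29 members tested there 3 did: Cdkn1a, Ccne1 and Cdkn1b.

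**Figure D2:**
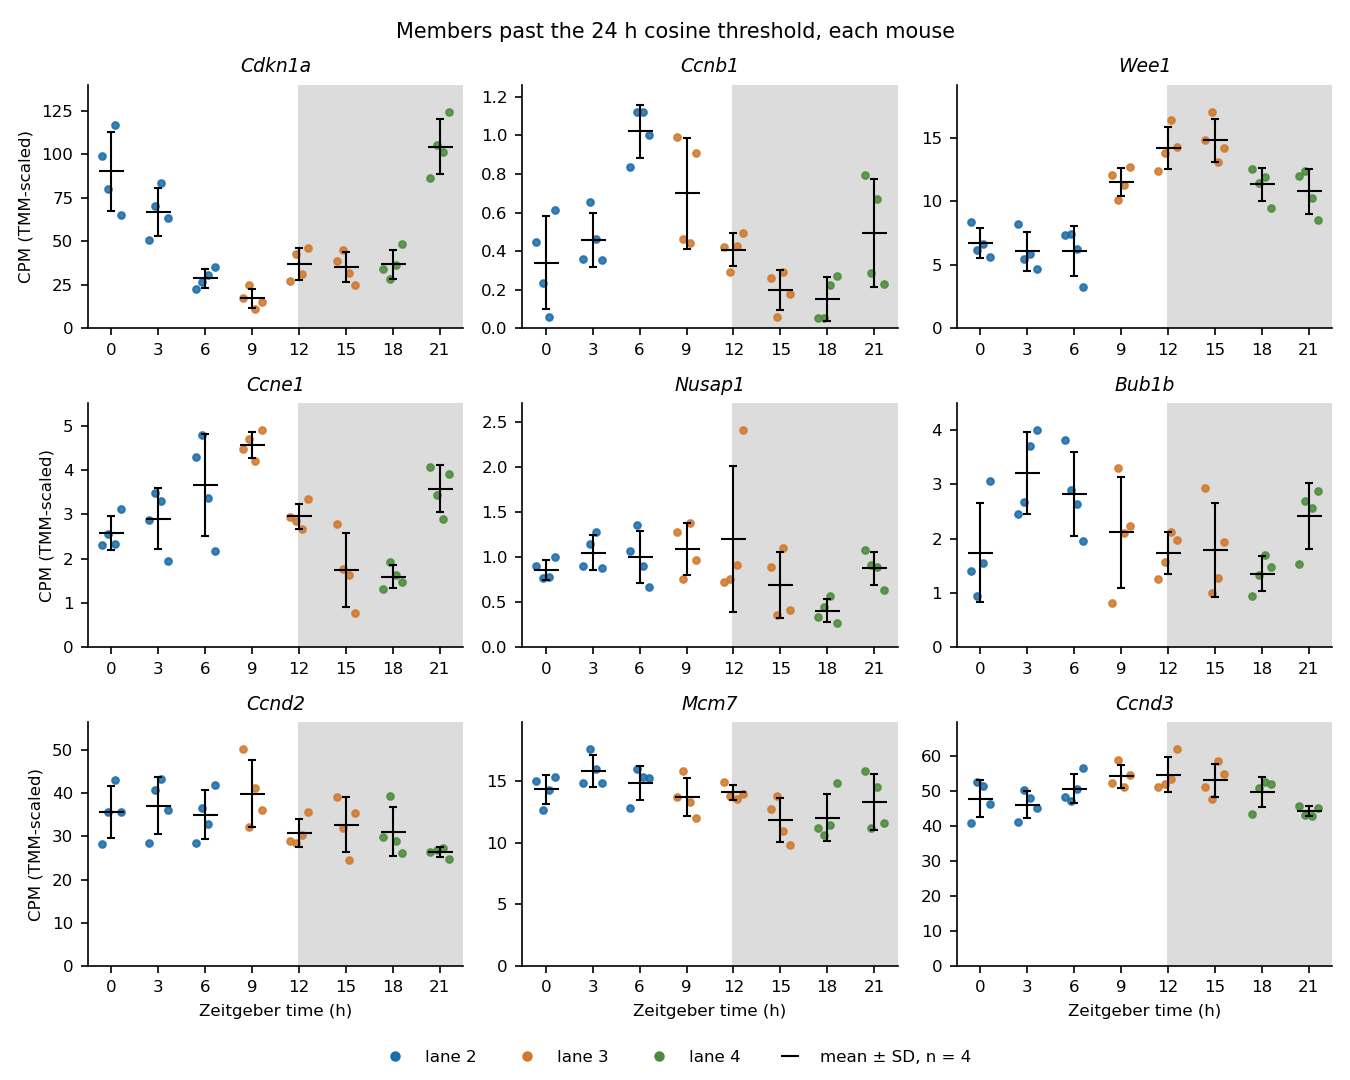
CPM of the 9 members past the 24 h cosine threshold in each of 32 mice against Zeitgeber time (h), with points coloured by lane, bars for mean ± SD (n = 4) and the dark phase shaded; each axis starts at 0. Cdkn1a falls from the ZT21 mean of 104 CPM to 17.2 at ZT9, Wee1 steps up between ZT6 and ZT9, and Nusap1 at ZT12 has mouse 4 at 2.41 CPM.

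Among the G1/S and D cyclins, 3 of 5 passed the cosine (60.0%, background 36.1%). Ccne1, cyclin E1, which drives entry into S phase, had the clearest profile. Its mice held 2.31, 2.55, 2.32 and 3.11 CPM at ZT0, 2.88, 3.49, 3.31 and 1.94 at ZT3, 4.30, 4.79, 3.36 and 2.17 at ZT6 and 4.48, 4.69, 4.21 and 4.90 at ZT9. In the dark they held 2.94, 2.85, 2.67 and 3.34 at ZT12, 2.79, 1.77, 1.63 and 0.763 at ZT15, 1.32, 1.93, 1.63 and 1.47 at ZT18 and 4.08, 3.44, 2.89 and 3.91 at ZT21. The mean was highest at ZT9 at 4.57 ± 0.294 CPM and lowest at ZT18 at 1.59 ± 0.261. It was high again at ZT21 at 3.58 ± 0.530 (SD, n = 4 each). The cosine passed (edgeR adjusted P = 0.0126, beside lane 0.000181), and ZT18 and ZT21, which shared a lane, differed (adjusted P = 0.0130 within lane 4). Ccne1 passed neither in lane 2 (ZT0, ZT3, ZT6) nor in lane 3 (ZT9, ZT12, ZT15), with edgeR adjusted P of 0.307 and 0.0508. The step from ZT6 to ZT9 is also the step from lane 2 to lane 3, so a climb through the light phase was not shown within a lane.

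Ccnd3, cyclin D3, had a small swing that was regular between mice. The light-phase mice held 41.0, 52.8, 51.4 and 46.3 CPM at ZT0, 41.3, 50.2, 48.1 and 45.1 at ZT3, 48.2, 47.2, 50.8 and 56.5 at ZT6 and 52.4, 58.8, 51.3 and 54.5 at ZT9, and the dark-phase mice 51.3, 52.2, 53.4 and 62.0 at ZT12, 51.1, 47.9, 58.7 and 55.1 at ZT15, 43.4, 51.1, 52.6 and 52.1 at ZT18 and 45.7, 43.3, 42.8 and 45.2 at ZT21. The highest mean was 54.7 ± 4.95 CPM at ZT12 and the lowest 44.3 ± 1.41 at ZT21 (1.24-fold; SD, n = 4 each), and the cosine passed (edgeR adjusted P = 0.00210) with a peak at ZT11.4 ± 0.798 h. It did not pass beside lane (adjusted P = 0.253).

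Ccnd2, cyclin D2, was just under the threshold (edgeR adjusted P = 0.0476) and was above it in 19 of 32 fits that each left out 1 mouse and beside lane (adjusted P = 0.667). Its mice held 28.2, 35.6, 43.1 and 35.6 CPM at ZT0, 28.4, 40.7, 43.4 and 36.1 at ZT3, 28.5, 36.7, 32.9 and 41.9 at ZT6, 50.2, 32.3, 41.2 and 36.1 at ZT9, 28.8, 28.5, 30.2 and 35.6 at ZT12, 39.2, 31.9, 24.5 and 35.4 at ZT15, 29.9, 39.3, 29.0 and 26.1 at ZT18 and 26.5, 26.9, 27.3 and 24.7 at ZT21. The mice of ZT21 were close together and low, and those of the other times were spread over a wide range. Ccnd1, cyclin D1, ran from 7.55 ± 1.97 CPM at ZT21 to 11.1 ± 3.65 at ZT9 (SD, n = 4 each) with overlapping mice (edgeR adjusted P = 0.470 for the cosine). Ccne2, cyclin E2, did not pass the cosine (edgeR adjusted P = 0.289) but differed between the 8 time points (adjusted P = 0.0190), from 1.46 ± 0.486 CPM at ZT0 to 3.26 ± 0.320 at ZT9. Within lanes 2, 3 and 4 it did not pass (edgeR adjusted P = 0.0777, 0.715 and 0.0961). Exons of genes on the other strand cover 23.4% of the exonic bases of Ccnd1 (LTO1) and 17.4% of those of Ccne2 (Ints8).

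The replication genes had the lowest median amplitude of the 5 groups (0.13, beside 0.14 for all tested genes), and 1 of 10 members passed the cosine, beside 36.1% of all tested genes. That gene was Mcm7, a subunit of the MCM helicase that unwinds DNA. Its mice held 15.0, 12.7, 14.3 and 15.3 CPM at ZT0, 14.8, 17.6, 16.0 and 14.9 at ZT3, 12.8, 16.0, 15.4 and 15.3 at ZT6 and 13.7, 15.8, 13.3 and 12.0 at ZT9, and then 15.0, 13.8, 13.6 and 14.0 at ZT12, 12.8, 13.8, 11.0 and 9.80 at ZT15, 11.2, 10.7, 11.4 and 14.8 at ZT18 and 15.9, 11.2, 14.5 and 11.6 at ZT21. The mean fell from 15.8 ± 1.31 CPM at ZT3 to 11.8 ± 1.81 at ZT15 (1.34-fold; SD, n = 4 each; edgeR adjusted P = 0.00556, beside lane 0.274). The other helicase subunits gave adjusted P from 0.0772 (Mcm2) to 0.619 (Mcm3), with fitted peaks spread over the day, from ZT0.909 for Mcm2 and ZT3.38 for Mcm4 to ZT14.2 for Mcm3. The MCM proteins work together as a ring, and the errors of these peaks reached 3.05 h (SE, Mcm3).

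Cdc45, which joins that helicase, did not pass the cosine (edgeR adjusted P = 0.111) but differed between time points (adjusted P = 0.0437), from 5.08 ± 0.606 CPM at ZT3 to 7.14 ± 1.54 at ZT12. That call held in only 12 of 32 fits without 1 mouse (edgeR adjusted P up to 0.0903, without mouse 4 of ZT3), and Cdc45 did not pass within lanes 2, 3 and 4 (adjusted P = 0.164, 0.937 and 0.239). Cdc6, which loads the helicase, ran from 1.32 ± 0.375 CPM at ZT0 to 2.33 ± 0.724 at ZT3 (edgeR adjusted P = 0.0982 for the cosine). Rrm2, the S-phase subunit of ribonucleotide reductase, ran from 1.12 ± 0.421 CPM at ZT0 to 2.06 ± 0.859 at ZT15 (edgeR adjusted P = 0.0784). Pcna stayed within 19.8 ± 1.11 and 21.8 ± 1.70 CPM (SD, n = 4 each), the smallest fold between time points of any member at 1.10. A processed copy, Pcna-ps2, shares 10.1% of the 100-base windows of Pcna.

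Of the 8 tested G2/M cyclins, kinases and the activator of the anaphase-promoting complex, 2 passed the cosine (25.0%, beside 36.1% of all tested genes). Ccnb1, cyclin B1, the partner of CDK1 at entry into mitosis, had the largest relative change among the mitotic genes. Its mice held 0.449, 0.237, 0.0596 and 0.612 CPM at ZT0, 0.360, 0.654, 0.464 and 0.353 at ZT3, 0.836, 1.12, 1.12 and 1.00 at ZT6 and 0.990, 0.463, 0.443 and 0.907 at ZT9. In the dark they held 0.420, 0.291, 0.425 and 0.493 at ZT12, 0.263, 0.0591, 0.291 and 0.176 at ZT15, 0.0551, 0.0552, 0.225 and 0.273 at ZT18 and 0.793, 0.287, 0.668 and 0.230 at ZT21. All mice of ZT6 lay above every mouse of the other times except those of ZT9, which overlapped with them. The mean was 1.02 ± 0.136 CPM at ZT6 and 0.152 ± 0.114 at ZT18 (SD, n = 4 each), on raw counts of 1 to 20 per library. The cosine passed (edgeR adjusted P = 0.00131; beside lane 0.00326) with a peak at ZT6.07 ± 0.762 h, and ZT0, ZT3 and ZT6 differed within lane 2 (adjusted P = 0.0480). The lane 2 call was lost in 11 of 12 fits without 1 mouse (edgeR adjusted P up to 0.113, without mouse 3 of ZT6) and with library size alone (0.0603). Pseudogene copies (Ccnb1-ps, Gm12856, Gm8416 and Gm4870) share 14.9% of the 100-base windows of Ccnb1, so how reads were divided among them is uncertain.

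Bub1b, the checkpoint protein BUBR1, passed with less margin (edgeR adjusted P = 0.0318; beside lane 0.246). Its mice held 1.41, 0.948, 1.55 and 3.06 CPM at ZT0, 2.46, 2.67, 3.71 and 4.00 at ZT3, 3.82, 2.90, 2.64 and 1.95 at ZT6, 0.815, 3.30, 2.10 and 2.24 at ZT9, 1.26, 1.57, 2.12 and 1.97 at ZT12, 2.94, 1.00, 1.28 and 1.94 at ZT15, 0.937, 1.32, 1.69 and 1.47 at ZT18 and 1.53, 2.70, 2.56 and 2.87 at ZT21. ZT3 was highest at 3.21 ± 0.758 CPM and ZT18 lowest at 1.36 ± 0.318 (SD, n = 4 each). In 7 of 32 fits that each left out 1 mouse the call was lost, most clearly without mouse 4 of ZT3 (edgeR adjusted P = 0.0680).

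The other members of this group did not pass. Cdk1, the kinase that cyclin B1 activates, averaged 0.949 ± 0.124 CPM at ZT6 and 0.394 ± 0.353 at ZT21 (SD, n = 4 each; edgeR adjusted P = 0.149 for the cosine, peak at ZT7.79 ± 1.78 h). Ccnb2, the other B-type cyclin, ran from 0.270 ± 0.153 CPM at ZT15 to 0.504 ± 0.216 at ZT12 (edgeR adjusted P = 0.897). Ccna2 (cyclin A2), Plk1 and Aurka (kinases of mitosis) and Cdc20 (activator of the anaphase-promoting complex) gave adjusted P from 0.499 to 0.855.

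Of the 9 tested spindle, kinetochore and chromosome genes, 1 passed the cosine (11.1%, beside 36.1% of all tested genes). Nusap1, a microtubule-binding protein of the spindle, did so narrowly (edgeR adjusted P = 0.0428; beside lane 0.166). Its mice held 0.899, 0.770, 0.775 and 1.00 CPM at ZT0, 0.900, 1.14, 1.28 and 0.882 at ZT3, 1.07, 1.36, 0.897 and 0.668 at ZT6, 1.28, 0.753, 1.38 and 0.967 at ZT9, 0.721, 0.756, 0.911 and 2.41 at ZT12, 0.893, 0.355, 1.11 and 0.411 at ZT15, 0.331, 0.442, 0.564 and 0.273 at ZT18 and 1.08, 0.918, 0.891 and 0.632 at ZT21. The lowest group was ZT18, and mouse 4 of ZT12 exceeded all others. In 14 of 32 fits without 1 mouse the call was lost, and without mouse 1 of ZT18 the edgeR adjusted P was 0.0830. Mki67, Top2a, Birc5 (survivin), Cenpe and Kif11 (motors of the spindle), Kif20a, Tpx2 and Prc1 gave cosine adjusted P from 0.294 to 0.860. Cdc23 on the other strand overlaps 29.3% of the exonic bases of Kif20a. Of the 17 tested mitotic members, 10 had their lowest time-point mean at ZT18 (58.8%), beside 11.1% of all tested genes. Their deviations between mice had a median pairwise r of 0.27, so they are not independent, and the libraries of ZT18 shared lane 4 with ZT21.

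The mitotic genes also differed between mice of the same time point. The summed level of the 20 members ran from 10.8 CPM (mouse 1 of ZT18) over a median of 15.1 to 30.8 CPM (mouse 4 of ZT12). At ZT12 the other 3 mice held 13.4 to 15.1 CPM, at ZT21 mouse 3 held 26.2 CPM and the others 11.6 to 14.3, and at ZT0 mouse 4 held 25.4 CPM and the others 12.5 to 14.7. Each of these mice was thus far above all others killed at the same hour. For Mki67 the values were 1.35, 1.78, 1.79 and 4.78 CPM at ZT0, 2.16, 2.07, 2.49 and 1.88 at ZT3, 2.33, 2.60, 1.46 and 2.06 at ZT6, 1.46, 1.79, 2.55 and 3.38 at ZT9, 2.70, 1.63, 1.76 and 6.69 at ZT12, 3.00, 1.65, 1.46 and 2.87 at ZT15, 0.827, 1.55, 1.97 and 1.53 at ZT18 and 1.08, 2.01, 6.01 and 1.32 at ZT21. For Top2a they were 0.385, 1.18, 0.655 and 2.50 CPM at ZT0, 1.98, 1.58, 1.57 and 1.18 at ZT3, 1.61, 1.66, 0.673 and 1.23 at ZT6, 0.582, 0.579, 2.71 and 1.51 at ZT9, 1.74, 1.16, 1.03 and 3.84 at ZT12, 2.10, 1.18, 0.991 and 1.70 at ZT15, 0.882, 0.773, 1.41 and 1.58 at ZT18 and 0.793, 0.459, 2.78 and 0.920 at ZT21. Mouse 4 of ZT12 was the highest of all 32 mice for 7 of the 20 members and among the 4 highest for 13. Mouse 3 of ZT21 was among the 4 highest for 9, mouse 3 of ZT9 for 8 and mouse 4 of ZT0 for 7. The summed level of the 10 replication members was far more even, from 57.8 to 77.5 CPM, and its highest mouse was again mouse 4 of ZT12.

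**Figure D3:**
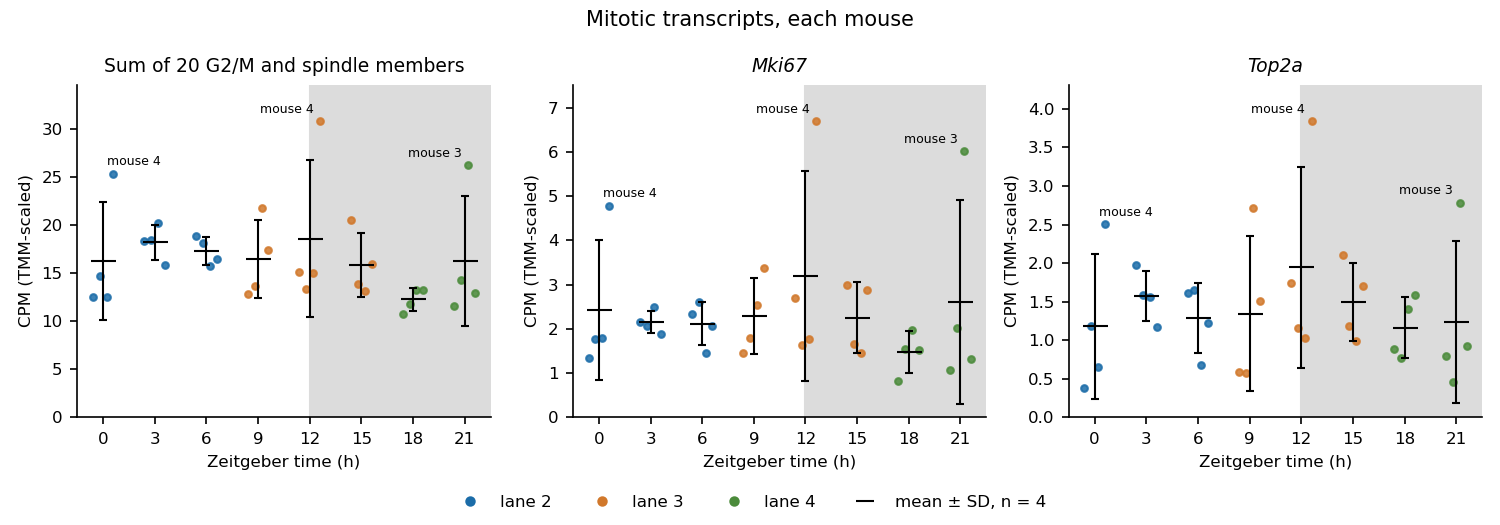
CPM in each of 32 mice against Zeitgeber time (h) for the sum of the 20 G2/M and spindle members, for Mki67 and for Top2a, with points coloured by lane, bars for mean ± SD (n = 4) and the dark phase shaded; each axis starts at 0. Mouse 4 of ZT12 (sum 30.8 CPM), mouse 3 of ZT21 (26.2) and mouse 4 of ZT0 (25.4) stand above the other mice of their time point.

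Whether mice with more of 1 transcript also held more of another was asked on deviations from the time-point mean (log2 CPM), with mice permuted within time points (two-sided, 12 pairs of genes). Mki67 and Top2a rose and fell together: Pearson's r was 0.816 (permutation P = 8.0e-05, adjusted P = 0.00096) and Spearman's rho 0.794 (permutation P = 4.0e-05, adjusted P = 0.00048) over 32 mice. Without the 2 mice farthest from the median of Mki67, r was 0.745 (permutation P = 0.00073). Within lanes r was 0.910 (12 mice, exact permutation P = 0.00188), 0.852 (12 mice, exact permutation P = 0.00174) and 0.727 (8 mice, exact permutation P = 0.153).

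Of the other pairs with Mki67, only Ptprc, which encodes the leukocyte antigen CD45, passed after adjustment. Here r was 0.690 (permutation P = 0.00123, adjusted P = 0.00738) and rho 0.639 (permutation P = 0.00103, adjusted P = 0.00618), and without the 2 farthest mice r was 0.550 (permutation P = 0.0171). Within lanes it was 0.748, 0.763 and 0.610 (12, 12 and 8 mice; exact permutation P = 0.0166, 0.0187 and 0.236). The remaining pairs did not pass, and several of their values moved between lanes or without the 2 farthest mice. Spearman's rho over these pairs ran from -0.343 for Ucp1 to 0.389 for Cdkn1b (permutation adjusted P from 0.164 to 0.647).

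For Pecam1, an endothelial marker, r with Mki67 was 0.178 (permutation adjusted P = 0.415) and 0.310 without the 2 farthest mice, with 0.519, 0.355 and -0.538 in lanes 2, 3 and 4. For Pdgfra, a progenitor marker, it was 0.211 (permutation adjusted P = 0.415), with 0.640 in lane 2 (exact permutation P = 0.0034, unadjusted), -0.07 in lane 3 and 0.291 in lane 4. For Ucp1 it was -0.428 (permutation adjusted P = 0.138) and -0.199 without the 2 farthest mice. Whether Mki67 was more closely related to Ptprc than to these markers was not tested.

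Among the members, r with Mki67 was 0.316 for Ccnb1 (permutation adjusted P = 0.350), 0.227 for Ccnd1 (adjusted P = 0.415) and 0.398 for Mcm5 (adjusted P = 0.0810). For the inhibitor Cdkn1b it was 0.399 (permutation adjusted P = 0.0810) and for Cdkn1a -0.149 (adjusted P = 0.50). Without the 2 farthest mice it was 0.354 for Ccnd1, 0.473 for Cdkn1b and -0.307 for Cdkn1a. By lane, Ccnd1 ran from 0.683 in lane 2 to -0.09 in lane 4 and Cdkn1a from -0.510 in lane 2 to 0.05 in lane 4.

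For Wee1 with the clock gene Per2, r was 0.07 (permutation adjusted P = 0.673). For Cdkn1a with Fkbp5, a glucocorticoid target, r was 0.253 (permutation adjusted P = 0.415). Without mice 2 and 3 of ZT9 it was 0.543 (permutation P = 0.0118, unadjusted), and it was 0.709 in lane 2 (exact permutation P = 0.0279, unadjusted), 0.159 in lane 3 and -0.101 in lane 4.

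**Figure D4:**
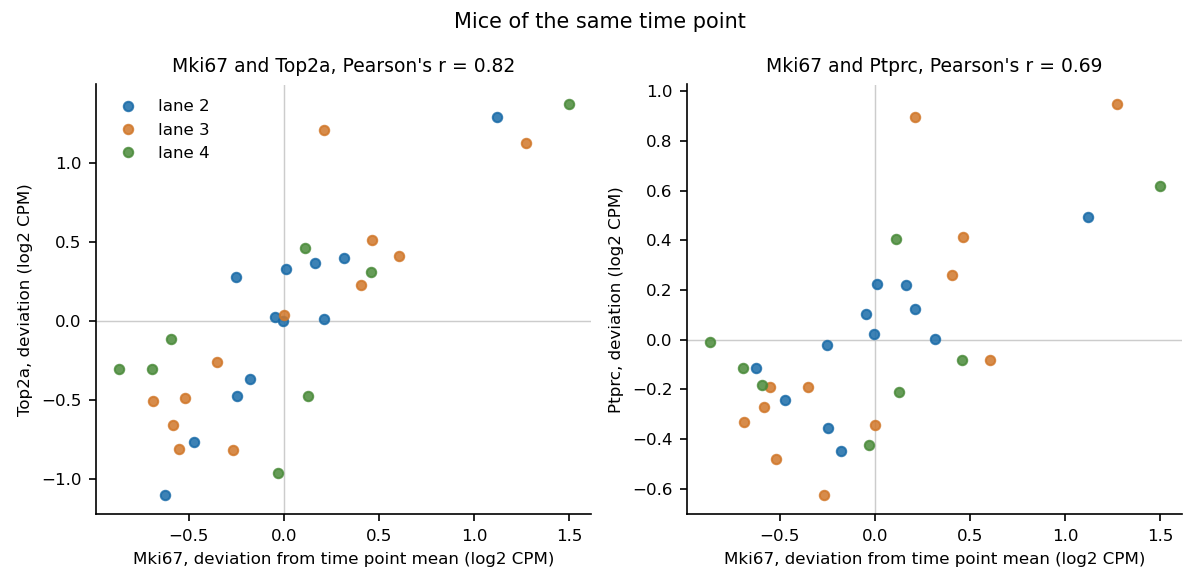
Deviation of each mouse from the mean of its time point (log2 CPM) for Mki67 on the horizontal axis against Top2a (left) and Ptprc (right), 32 mice, coloured by lane. Both clouds run upwards, with Pearson's r of 0.816 for Top2a and 0.690 for Ptprc.

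As a description over gene pairs, which share the same 32 libraries, deviations of the 17 tested mitotic members correlated with a median r of 0.270 (117 of 136 pairs above 0). The median r was 0.129 over the 45 pairs of replication members and 0.167 between both groups. Between the mitotic members and the 3 brakes on CDKs it was 0.0174 (51 pairs). Mki67 had a median r of 0.368 with the 16 other mitotic members and of 0.0164 with all 15504 other tested genes.

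Marker sums of other cells differed between the same mice. Mouse 4 of ZT0 had the highest macrophage and myeloid sum of its time point (82.5 CPM over 8 genes, others 56.8 to 58.4), the highest lymphoid sum (15.1 CPM over 10 genes, others 9.69 to 12.9) and the lowest brown adipocyte sum (12008 CPM, others up to 13882). Its stroma (402 CPM), erythroid (855 CPM) and Schwann cell sums (104 CPM) were the highest of ZT0 too. Mouse 3 of ZT21 likewise had the highest macrophage sum (97.1 CPM, range at ZT21 from 54.6) and lymphoid sum (15.2 CPM, range from 10.5) and the lowest brown adipocyte sum (10511 CPM). It was also highest of ZT21 for the muscle (2305 CPM) and endothelial sums (842 CPM, range from 837) and lowest for the Schwann cell sum (58.6 CPM). Mouse 4 of ZT12 had the highest macrophage (114 CPM, range from 82.6) and lymphoid sums (18.5 CPM, range from 15.0) of its time point by a smaller margin, but its brown adipocyte sum was not the lowest (11597 CPM, range from 11537), its stroma sum was the third (444 CPM, up to 561) and its Schwann cell sum the lowest (up to 146 CPM in the others). Mouse 3 of ZT9, with the highest mitotic sum of its time point (21.8 CPM), had the highest macrophage sum (264 CPM) and the highest lymphoid sum (32.1 CPM) of all 32 mice. It was also the highest of all 32 for the stroma (656 CPM) and erythroid sums (1138 CPM), the highest of ZT9 for the endothelial and Schwann cell sums and the lowest of ZT9 for the brown adipocyte sum. Over all 8 time points, the mouse with the highest mitotic sum had the highest macrophage sum in 5, the highest lymphoid sum in 5, the lowest brown adipocyte sum in 5, the highest Schwann cell sum in 5 and the lowest in 2, and the highest stroma and endothelial sums in 3 each. At ZT3 and ZT18 that mouse was highest for neither immune list. The part of these cells in the variation was not tested.

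Over all marker lists 20 of 59 tested genes passed the cosine (33.9%), against 36.1% of all tested genes. By list these were 5 of 8 of the macrophage and myeloid list, 5 of 8 of the stroma and progenitor list, 4 of 10 of the lymphoid list (40.0%) and 3 of 7 of the endothelial list (42.9%), with the others below. Beside lane 1 of 8, 2 of 8, 3 of 10 and 1 of 7 passed (17.2% of all tested genes). Peaks between ZT3 and ZT9 were found for 3, 4, 4 and 1 of those called, beside 27.1% of all rhythmic genes. In the brown adipocyte list 3 of 10 genes passed (30.0%) and 2 of 10 beside lane, and 2 of those called peaked between ZT3 and ZT9. By time point, the mean macrophage sum ran from 63.7 ± 12.6 CPM at ZT0 to 128 ± 91.8 at ZT9 (82.9 ± 18.5 without mouse 3, n = 3, which leaves ZT3 highest with 111 ± 24.4), and the stroma sum over 8 genes from 346 ± 46.5 CPM at ZT0 to 531 ± 70.8 at ZT3 (SD, n = 4 each). The light-phase peaks of Ccnb1, Ccne1, Nusap1, Bub1b, Mcm7 and Ccnd2 fell in these hours. Their relation to the markers was not tested. Within lane 4, where Ccne1 rose from ZT18 to ZT21, the stroma sum was 400.3 ± 49.5 and 372 ± 74.4 CPM and the lymphoid sum 13.0 ± 2.29 and 11.9 ± 2.20 CPM. The macrophage sum was 82.5 ± 15.5 and 73.0 ± 19.6 CPM and the brown adipocyte sum 11573 ± 779 and 11896 ± 1294 CPM. The endothelial sum was lower at ZT21 (942 ± 51.6 and 839 ± 2.44 CPM) and the Schwann cell sum higher (59.8 ± 2.54 and 80.8 ± 16.5 CPM). The endothelial sum was lowest at ZT12 with 769 ± 36.8 CPM. Of the muscle, erythroid and Schwann cell lists 0 of 7, 0 of 5 and 0 of 4 tested genes passed by edgeR, and 0 also at an unadjusted P of 0.05 and by DESeq2. Of all tested genes, 7253 of 15505 passed the unadjusted P and 38.1% passed by DESeq2. These lists were not thereby level: the muscle genes had a median amplitude of 1.92 (log2) with a wide spread between mice.

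For the promoters, RefSeq windows from 250 bases before to 50 after a start site (GRCm38.p6) were at hand for 29 of the 38 members, not for Wee1, Ccnd1, Ccnd2, Ccne2, Mcm4, Ccna2, Aurkb, Kif20a and Tpx2. Mitotic genes are known for paired CCAAT boxes and the cell cycle homology region (CHR), replication genes for E2F sites. The 29 genes had 33 windows. On either strand, CCAAT was found in 26 of these 33 windows (37.4% of all 32851 windows), the CHR core TTTGAA in 14 (17.9%) and the E2F motif TTTNGCGC in 5 (1.38%). The clock motifs CACGTG (E-box) and TTATGNAA (D-box) were found in 0 and 1 of the 33 windows (7.15% and 3.38% of all windows), and a p53 half-site in 3 (8.36%). A match is a description of letters and not a site of binding. The stretches below show Mki67 and Top2a, which moved together between mice, Cdk1 and Ccnb1 as the kinase and cyclin of mitotic entry, Mcm6 for the replication genes, and Cdkn1a for its rhythm. They are written 5′ to 3′ with motif matches on either strand in capitals. Annotated exons are left out, so that the Cdk1 stretch ends 26, the Ccnb1 stretch 84 and the Cdkn1a stretch 3 bases before the RefSeq start site, and the others end at it.
Mki67, chr7:135716380-135716579, minus strand: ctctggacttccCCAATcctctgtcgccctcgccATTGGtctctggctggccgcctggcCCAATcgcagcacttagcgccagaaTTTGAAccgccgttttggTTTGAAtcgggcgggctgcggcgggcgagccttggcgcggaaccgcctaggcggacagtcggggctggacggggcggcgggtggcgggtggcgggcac
Top2a, chr11:99024190-99024389, minus strand: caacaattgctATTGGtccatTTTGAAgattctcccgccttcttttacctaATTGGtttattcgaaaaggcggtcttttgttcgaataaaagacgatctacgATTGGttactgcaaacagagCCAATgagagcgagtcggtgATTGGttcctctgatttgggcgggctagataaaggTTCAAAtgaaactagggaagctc
Cdk1, chr10:69352939-69353112, minus strand: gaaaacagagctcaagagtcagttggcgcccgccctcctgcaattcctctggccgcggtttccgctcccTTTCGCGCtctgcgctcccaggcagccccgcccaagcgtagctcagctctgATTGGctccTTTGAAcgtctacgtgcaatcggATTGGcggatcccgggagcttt
Ccnb1, chr13:100786571-100786686, minus strand: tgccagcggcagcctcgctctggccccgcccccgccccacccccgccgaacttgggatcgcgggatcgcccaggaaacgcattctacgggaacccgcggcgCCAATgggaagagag
Mcm6, chr1:128359706-128359905, minus strand: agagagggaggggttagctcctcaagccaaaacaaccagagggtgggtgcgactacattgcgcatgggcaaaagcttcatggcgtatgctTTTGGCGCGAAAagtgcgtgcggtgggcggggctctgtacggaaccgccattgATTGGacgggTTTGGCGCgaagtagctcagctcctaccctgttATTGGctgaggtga
Cdkn1a, chr17:29090779-29090975, plus strand: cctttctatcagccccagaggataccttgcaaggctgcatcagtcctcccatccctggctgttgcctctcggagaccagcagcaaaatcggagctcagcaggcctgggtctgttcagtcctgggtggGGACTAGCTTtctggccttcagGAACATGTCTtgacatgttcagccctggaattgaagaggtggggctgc
The Mki67 stretch held 3 CCAAT matches and 2 CHR matches, that of Top2a 5 and 2, and that of Cdk1 2 and 1 with 1 E2F match. The Ccnb1 stretch held 1 CCAAT match. The full windows held further matches outside these stretches. They were CCAAT at -67 from the start site for Ccnb1, CCAAT at -208 and CHR at -15 for Cdk1, and CCAAT at -227 for Top2a. The Mcm6 stretch held 3 E2F matches, 2 of which overlap on opposite strands. The Cdkn1a stretch held 2 p53 half-sites and no other match.

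At the onset of dark against the onset of light (ZT12 against ZT0), 3 members differed (edgeR, 15.9% of all tested genes; higher 7.71%, lower 8.15%). Wee1 was higher at ZT12 by 1.08 ± 0.188 (log2 fold change ± SE; adjusted P = 0.000236), Ccne2 was higher by 0.81 ± 0.265 (adjusted P = 0.0360), and Cdkn1a was lower with -1.29 ± 0.228 (adjusted P = 0.000301). Ccne2 was 1.28, 1.30, 1.07 and 2.17 CPM at ZT0 and 2.58, 2.44, 2.31 and 2.96 at ZT12. The mice of both times did not overlap (the case for 16.3% of all tested genes), but the call was lost in 7 of 32 fits without 1 mouse (adjusted P = 0.113 without mouse 3 of ZT0). The median log2 fold change of the 35 members was 0.19, beside 0.00 for all tested genes. ZT0 and ZT12 were sequenced on different lanes.

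In the middle of the dark against the middle of the light (ZT18 against ZT6), 5 members differed (edgeR, 16.9% of all tested genes; higher 8.18%, lower 8.68%). Lower at ZT18 were Ccnb1 with a log2 fold change of -2.69 ± 0.50 (SE, adjusted P = 0.000522), Nusap1 with -1.30 ± 0.384 (adjusted P = 0.0202), Ccne1 with -1.20 ± 0.254 (adjusted P = 0.00179) and Bub1b with -1.05 ± 0.362 (adjusted P = 0.0445). Wee1 was higher with 0.90 ± 0.189 (adjusted P = 0.00157). For Ccnb1 the highest mouse of ZT18 held 0.273 CPM and the lowest of ZT6 0.836, so that the mice of both times did not overlap (the case for 22.9% of all tested genes). Cdkn1a did not pass, with 36.8 ± 8.36 and 28.7 ± 5.49 CPM (SD, n = 4 each; edgeR adjusted P = 0.306). The calls for Bub1b and Nusap1 were lost in 7 and 3 of 32 fits without 1 mouse (highest adjusted P = 0.136 without mouse 1 of ZT6 and 0.0725 without mouse 2 of ZT6). The median log2 fold change was -0.51 for the G2/M group, -0.21 for the spindle group and -0.12 for the replication group, beside 0.00 for all tested genes. ZT6 and ZT18 were also sequenced on different lanes.

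Over all 8 time points without a given shape, 8 members differed (edgeR, background 39.8%): Cdkn1a (adjusted P = 9.28e-09), Wee1 (2.70e-06), Ccne1 (0.000279), Ccnb1 (0.00127), Ccne2 (0.0190), Ccnd3 (0.0294), Nusap1 (0.0351) and Cdc45 (0.0437). Of 32 fits without 1 mouse, the call held in 29 for Ccne2, 30 for Ccnd3, 29 for Nusap1 and 12 for Cdc45, and in all 32 for the other 4. Within lane 2, 2 of 33 members differed (13.3% of all genes tested there), Cdkn1a and Ccnb1, with counts from 1 to 6 when 1 mouse was left out (6 without mouse 4 of ZT0, 1 in the other fits). Within lane 3, 0 of 32 members passed by edgeR (1.93%), while 4 were below an unadjusted P of 0.05 (16.0% of all genes tested there), and Ccne1 had the lowest value (adjusted P = 0.0508).

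Of 82 other cell cycle genes listed by role, 72 were tested and 32 passed the cosine (44.4%, background 36.1%). Both without and beside lane, 15 of the 72 passed, against 2036 of all 15505 tested genes. By role, 12 of 22 replication genes passed, 4 of 18 mitotic genes, 6 of 11 genes of the E2F and RB families and 10 of 21 CDKs, inhibitors and checkpoint genes. The lowest adjusted P belonged to Ccng2, an atypical cyclin of resting cells (2.20e-08, peak at ZT22.7), Cdc25b, the phosphatase that opposes WEE1 (4.67e-08, peak at ZT7.84), and Rb1, the retinoblastoma protein (1.71e-07, beside lane 0.0451, peak at ZT0.393). E2f2, an activating E2F factor, had the largest amplitude at 1.33 (adjusted P = 1.09e-06, beside lane 1.40e-05, all by edgeR). Its means fell from 31.6 ± 4.45 CPM at ZT0 to 3.42 ± 0.851 at ZT12 (SD, n = 4 each).

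Cdc25b had its fitted peak in the light phase and Wee1 in the dark phase. Cdc25b averaged 2.77 ± 0.359 CPM at ZT0, 8.74 ± 1.17 at ZT6, 7.54 ± 0.575 at ZT9 and 2.55 ± 0.527 at ZT18 (SD, n = 4 each), and it passed beside lane (edgeR adjusted P = 8.80e-06). Ccng2 shared the late dark peak of Cdkn1a, with 61.5 ± 11.2 CPM at ZT0 and 23.5 ± 3.01 at ZT9 (beside lane edgeR adjusted P = 3.14e-05). Among the groups of members, the share of rhythmic genes ran from 10.0% in the replication members to 66.7% in the 3 brakes on CDKs.

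**Figure D5:**
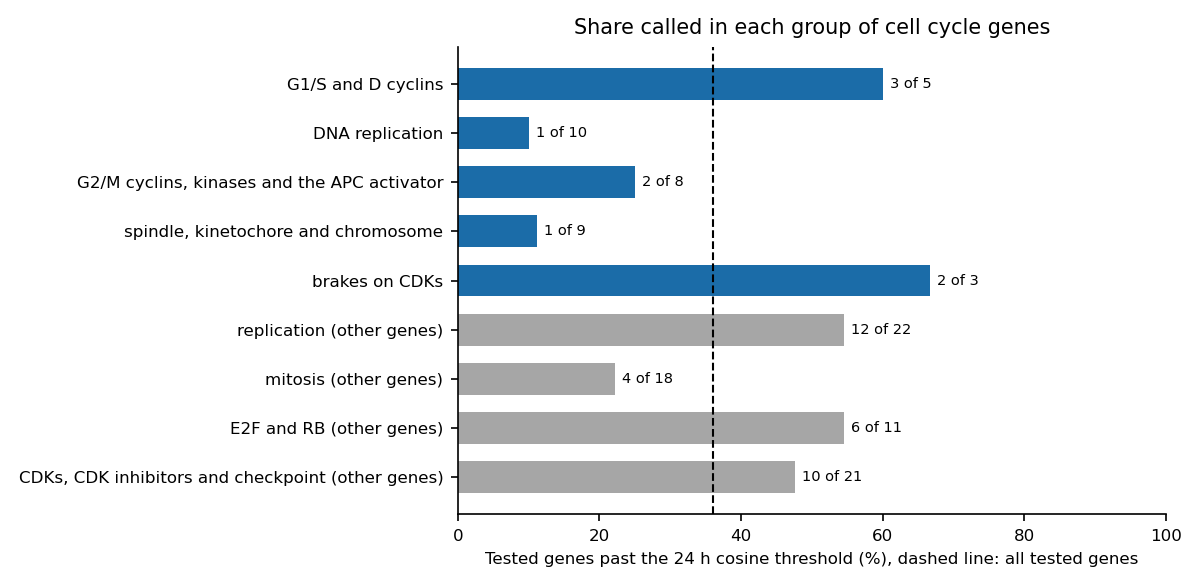
Share of tested genes past the 24 h cosine threshold (%, horizontal axis from 0) in the 5 groups of members (blue) and the 4 lists of other cell cycle genes (grey), each bar with its count; the dashed line is the 36.1% of all 15505 tested genes. Replication and spindle members (10.0% and 11.1%) lie left of the line, the cyclins of G1/S (60.0%) and the brakes on CDKs (66.7%) right of it.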

How the data were processed

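Whole iBAT from 32 mice was sequenced, 1 library per mouse. The deposited table holds raw counts per Ensembl gene. Per the submitters' processing notes and the study's methods, the authors aligned reads to mm10 with GSNAP, counted them with HTSeq 0.6.1 and checked quality with MultiQC; whether counting used the strand is not given in the sources used here. The authors then filtered and normalised with edgeR and tested oscillation with JTK. The members, lists and tests were chosen with earlier results of these data known.

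Here, genes were filtered by filterByExpr of edgeR (version 4.0.16, R 4.3.3), which kept 15505 of 50686 genes and 99.9% of counts, and scaled by TMM (factors 0.923 to 1.09). Symbols were found for 50376 genes. The glmQLFTest of edgeR was run on a 24 h cosine and sine, on the 8 time points, on both contrasts and within lanes, with Benjamini-Hochberg adjustment over all tested genes. Amplitudes and peaks came from log2 CPM with a prior count of 2. JTK was an own implementation (periods 21 and 24 h, 15 templates, exact null) in Python 3.11.15 with numpy 2.4.6, pandas 2.3.3 and scipy 1.17.1. DESeq2 1.42.0 was an alternative, as were other scalings, filters, a lane term, a replicate block and leaving out each library. Permutation tests drew 100000 resamples, or enumerated all within lanes.

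On data simulated from these libraries (15505 genes), the edgeR cosine recovered 62.0% of genes changed with a log2 amplitude of 0.3 and 85.0% at 0.6 at an adjusted P of 0.05, and JTK 79.0% and 94.0% at an unadjusted P of 0.05. The changed genes were drawn at random from all tested genes at their own levels, with no lane effect. These shares therefore do not hold for the low mitotic members by themselves, nor for fits beside lane. No replicate pair looked like 1 library deposited in duplicate (lowest mean chi-square 7.97 over 48 pairs, genes of at least 20 counts). Replicate numbers did not pair the mice: deviations of same-numbered libraries correlated with a median r of -0.123, of others with 0.0716. P-values measure the spread between mice. A floor of 3 counts covers counting error only.

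All 38 members are named. Members past the cosine threshold are given in every mouse. Of the other lists, the 3 genes with the lowest adjusted P and the 3 with the largest amplitude are named, 4 genes in all. Mki67 and Top2a are given in every mouse because their relation was tested. Promoters came from RefSeq (GRCm38.p6), and gene positions from an annotation of GRCm38.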

Additional observations from a re-analysis of the deposited data

Results flagged for a closer look

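Within each time point, a mouse was singled out where its gap to the nearest of the other 3 took up most of the range of the 4 (Dixon's test at the 95% level). This held in 19 of 304 groups of 4 mice, 16 times for a high and 3 times for a low mouse. Chance flags about 1 in 20 groups, which would give 15.2 here.

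Mouse 4 of ZT12 stood out high for Ccna2 (1.86 CPM, others 0.425 to 0.640), Birc5 (1.10 CPM, others 0.30 to 0.425) and Nusap1 (2.41 CPM, others 0.721 to 0.911). Mouse 3 of ZT21 stood out for Aurkb (0.501 CPM, others 0.113 to 0.115), Cenpf (0.612 CPM, others 0 to 0.0575) and Kif20a (2.34 CPM, others 1.13 to 1.32). Mouse 1 of ZT15 stood out for Mcm5 (4.31 CPM, others 2.05 to 2.30), Bub1 (0.315 CPM, others 0.0583 to 0.0591) and Prc1 (1.42 CPM, others 0.466 to 0.591).

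Further high mice were mouse 4 of ZT0 for Mki67 (4.78 CPM, others 1.35 to 1.79), mouse 3 of ZT3 for Mcm2 (4.47 CPM, others 3.53 to 3.65), mouse 2 of ZT6 for Tpx2 (1.06 CPM, others 0.597 to 0.673) and mouse 3 of ZT9 for Ccnb2 (0.997 CPM, others 0.121 to 0.232). At ZT18, mouse 3 was high for Cdc45 (5.97 CPM, others 4.97 to 5.12), and mouse 4 for Aurka (1.26 CPM, others 0.661 to 0.718) and Cdkn1b (39.9 CPM, others 35.3 to 35.8).

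Low mice were mouse 1 of ZT18 for Ccnd3 (43.4 CPM, others 51.1 to 52.6), mouse 2 of ZT18 for Cdc6 (1.10 CPM, others 1.87 to 1.92) and mouse 4 of ZT6 for Cdkn1b (41.1 CPM, others 45.1 to 45.4).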

How the results depend on the processing

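None of the 8 contrasts called for a member changed its direction under the alternatives run, while the r of 5 gene pairs that did not pass had the opposite sign in 1 or more lanes. With lane as a factor the rhythmic members fell from 9 to 3. Members differing between time points went from 8 to 5 with no filter, those between ZT18 and ZT6 from 5 to 3 at a mean of at least 1 CPM (Ccnb1 and Nusap1 lie under it and were not tested), and those within lane 2 from 2 to 1 with library size alone. With library size alone, Mki67 also correlated with Mcm5 (r = 0.466) and with Cdkn1b (r = 0.486; permutation adjusted P = 0.0292 for both). The cause of the other changes was not tested.

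Leaving out each library in turn gave 6 to 10 rhythmic members, 6 to 11 by JTK, 6 to 11 differing between time points, 2 to 4 between ZT12 and ZT0, and 3 to 6 between ZT18 and ZT6 (3 without mouse 2 of ZT6 or mouse 1 of ZT18). Within lanes 2, 3 and 4 it gave 1 to 6, 0 to 1 and 2 to 3 (1 in lane 3 without mouse 2 of ZT9 or mouse 1 of ZT15).

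The replicate block gave 7 rhythmic members (Nusap1 and Ccnd2 lost, edgeR adjusted P = 0.0522 and 0.0636), 7 between time points, 3 and 5 in both contrasts, and 1, 0 and 1 in lanes 2, 3 and 4 (Cdkn1a kept in lanes 2 and 4, with Ccnb1 at 0.0871 in lane 2 and Ccne1 at 0.0697 and Cdkn1b at 0.123 in lane 4). The numbers did not pair the mice, and 8 of 32 libraries correlated best with their own number.

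Of 43 results on single members (35 cosine tests and 8 contrasts), 43 stayed on their side of the threshold under DESeq2 and under its size factors, while with lane 6 of 35 lost it, 3 with library size alone and 4 with no filter. A floor of 3 counts came to 0.158 to 0.193 CPM, and 16 of 20 mitotic members averaged under 1 CPM.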
